A study of Mus musculus with 9 samples.

Results

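The genes described here are the replication-dependent histone genes, measured in 9 mouse pancreas tumours. They were taken by symbol, as the H1f, H2ac, H2bc, H3c and H4c genes and their older Hist1, Hist2 and Hist3 names. They were further selected on the measured detection p-values: a gene was kept where 1 of its probes was brighter than the negative controls, at a detection p below 0.05, on 3 or more of the 9 arrays. Of 62 protein-coding genes that RefSeq lists under these names, 55 had a probe on the array, and 46 of these were kept among 11537 genes tested. The kept genes comprised 2 H1, 14 H2A, 11 H2B, 8 H3 and 11 H4 genes, of which 38 lie on mouse chromosome 13 and 8 on chromosome 3. The 3 groups were 3 tumours labelled KPC;TwistcKO (Twist cKO), 3 labelled KPC;SnailcKO (Snail cKO) and 3 labelled KPC. KPC is the usual name of a mouse model that develops pancreas tumours, and both knockout groups carry this background too. The labels name neither the alleles nor the Cre driver, and ages are not stated. The design text speaks of loss of Twist or of Snail in the pancreas, and counts 2 mice per group where the labels number 3, and all 9 tumours were used as labelled. Each piece of tumour is a mixture of cells, so that fewer cells of a type and less RNA per cell cannot be told apart.

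Histones H2A, H2B, H3 and H4 form the core around which DNA is wrapped, and the linker histone H1 binds where DNA enters and leaves that core. The replication-dependent genes lie in clusters and are transcribed mainly in S phase, when new DNA has to be packaged. Their mRNAs usually end in a stem-loop held by the protein SLBP rather than in a poly(A) tail, although some of these genes also yield polyadenylated forms. The labelling kit named in the protocols usually primes from poly(A) tails, and how far each probe reports tailed or tail-less RNA was not tested. Many of these genes are near-identical copies, so a probe named for one gene may also report others, and which gene a signal came from is uncertain.

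The arrays detected 16707 to 19606 of 45281 probes, or 36.9% to 43.3%. Their median raw intensities fell into 2 sets, 115.4 to 125.4 for Twist cKO 1 and 2 and Snail cKO 1 and 2 (array set 2), and 99.1 to 107.2 for Twist cKO 3, Snail cKO 3 and the 3 KPC tumours (array set 1). No label says what the sets correspond to, and as KPC has arrays in 1 set only, results are also given within set 1 and with the set as a block. Set 1 holds only 1 tumour of each knockout group, number 3. Twist1 was at 4.60, 4.67 and 5.23 (log2 intensity) in the Twist cKO tumours, with 1 of 3 above background, at 8.66, 4.65 and 7.56 in the Snail cKO tumours and at 9.19, 7.46 and 7.25 in KPC tumours. Snai1, the gene of Snail, was above background on all 9 arrays, with 7.32, 5.65 and 7.72 in the Twist cKO tumours, 7.79, 6.08 and 7.30 in the Snail cKO tumours, and 7.91, 7.46 and 6.89 in the KPC tumours, so that its lowest value was in Twist cKO 2. Whether its probe lies in the deleted part, and how much of the signal came from cells without the deletion, was not tested. Twist cKO 2 and KPC 1 stood apart in some cell type markers, given below, and results are shown with and without both. Other tumours stood apart in other markers, such as Snail cKO 3 in acinar (3.17) and KPC 2 in islet markers (3.42).

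**Figure D1:**
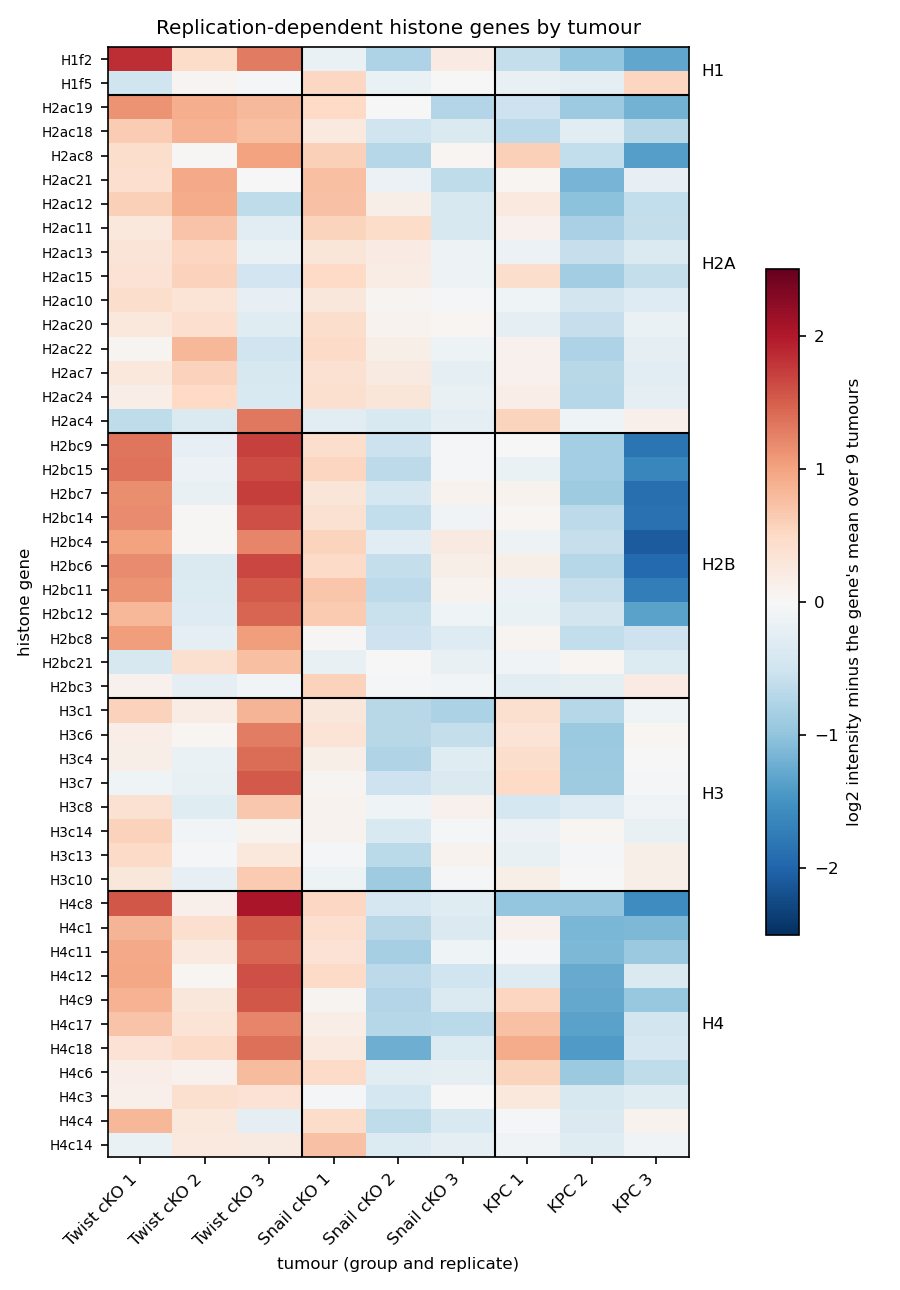
Log2 intensity of each kept histone gene (rows, grouped as H1, H2A, H2B, H3 and H4 and ordered by the Twist cKO minus KPC difference) in each tumour (columns), minus the gene's mean over the 9 tumours. Twist cKO 3 is the highest tumour for 25 of 46 genes, and in the H2B block Twist cKO 1 and 3 are the highest pair for 9 of 11 genes, while KPC 3 is the lowest for 8 of 11.

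The first comparison asked how the histone genes stood in tumours without Twist against KPC tumours. The mean was higher in Twist cKO than in KPC tumours for 44 of 46 histone genes, where 43.7% of all genes tested had a higher mean. The median difference over the 46 was 0.68 on the log2 scale, against -0.07 over all genes. No gene of the 11537 passed an adjusted p of 0.05 in limma with Benjamini-Hochberg adjustment, the smallest being 0.978. At an unadjusted p under 0.05, 17 of 46 histone genes were higher and 0 lower, against 1.29% and 2.25% of all genes (3.55% either way). H2bc8, among the 17 and the 44, and H3c8, H4c3 and H4c14, among the 44, were kept only through knockout tumours. They are no support for these counts here or in the comparisons below. The Twist cKO and KPC values did not overlap for 9 of the 46, all of them higher in Twist cKO, against 2.99% of all genes higher and 5.07% lower. Because the genes were selected with earlier results of these data known, these counts describe the group and are not a test of it. By class the median difference was 1.67 for H2B, 1.12 for H4, 0.54 for H2A, 0.54 for H3 and 0.98 over the 2 H1 genes. Without KPC 3 the 17 became 9, and without KPC 1 the median became 1.03.

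**Figure D2:**
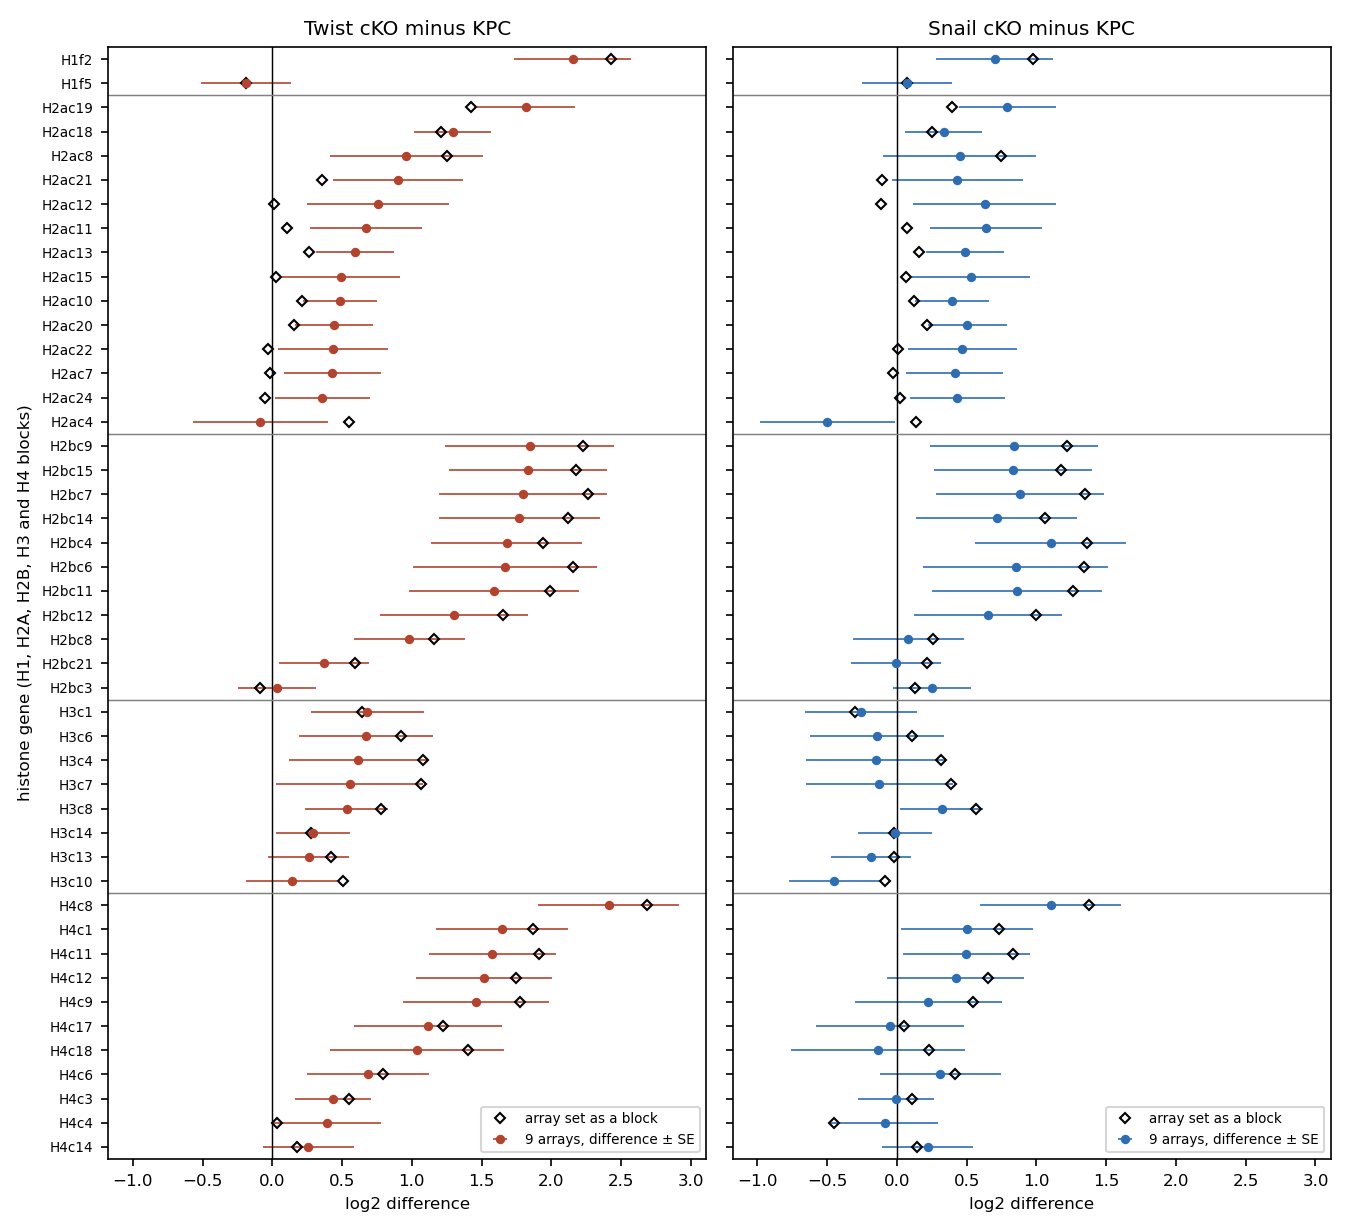
Log2 difference of each kept histone gene, Twist cKO minus KPC (left) and Snail cKO minus KPC (right), with its standard error from the 9-array fit (filled points and bars) and the value with array set as a block (open diamonds). With the block the H2B, H3 and H4 medians in Twist cKO minus KPC move up to 1.99, 0.71 and 1.40, and the H2A median moves down to 0.19.

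Among the linker histones, H1f2, the gene of a common somatic H1, stood out and H1f5, another somatic H1, did not. H1f2 was at 13.60, 12.21 and 13.05 in the Twist cKO tumours, 11.58, 10.97 and 11.94 in the Snail cKO tumours, and 11.16, 10.77 and 10.46 in the KPC tumours. Every Twist cKO tumour was above every Snail cKO and every KPC tumour, and Snail cKO and KPC overlapped. The Twist cKO minus KPC difference was 2.15 ± 0.42 (log2, SE), or 4.45-fold, and it ranked 4 among all genes by unadjusted p (limma p = 0.000706, adjusted p = 0.978, exact permutation p = 0.1). With 3 against 3 tumours the exact permutation p (two-sided) cannot go below the 0.1 found here. A further H1f2 probe differed by 2.17. Leaving out 1 tumour at a time gave 1.83 to 2.53. H1f5 averaged 5.34 ± 0.30 in Twist cKO, 5.60 ± 0.36 in Snail cKO and 5.53 ± 0.43 in KPC tumours (SD, n = 3 each), and its groups overlapped. The 250 bases before the H1f2 start are printed here because this gene had one of the largest differences. They lie at chr13:23738557-23738806 on the plus strand of GRCm38.p6 (RefSeq). Capitals mark the H1 box AAACACA, an element named for H1 promoters, and a CCAAT box.
H1f2: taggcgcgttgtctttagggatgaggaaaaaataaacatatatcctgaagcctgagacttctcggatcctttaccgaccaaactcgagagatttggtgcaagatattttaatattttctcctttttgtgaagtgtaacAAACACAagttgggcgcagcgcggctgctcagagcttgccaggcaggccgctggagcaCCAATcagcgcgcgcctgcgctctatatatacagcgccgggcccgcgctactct
Both kept H1 genes hold the H1 box on either strand of this window, as do 6.25% of 32851 windows of the same length before RefSeq mouse genes. It is a match of letters only, and H1f5, which holds it too, had a Twist cKO minus KPC difference of -0.19.

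The 14 H2A genes separated into H2ac18 and H2ac19 on the one side and most of the others on the other. H2ac19, a core H2A gene on chromosome 3, was at 10.79, 10.58 and 10.48 in the Twist cKO tumours, 10.16, 9.67 and 8.93 in the Snail cKO tumours, and 9.15, 8.75 and 8.49 in the KPC tumours. Twist cKO stood above both other groups in every tumour, and Snail cKO overlapped KPC. Its Twist cKO minus KPC difference was 1.82 ± 0.35, or 3.53-fold, ranking 3 among all genes (limma p = 0.000656, adjusted p = 0.978, exact permutation p = 0.1). H2ac18, the neighbouring gene, was at 10.54, 10.78 and 10.66 in the Twist cKO tumours, 10.15, 9.41 and 9.54 in the Snail cKO tumours, and 9.24, 9.65 and 9.21 in the KPC tumours. Again no Snail cKO or KPC tumour reached the lowest Twist cKO tumour. The H2ac18 difference was 1.29 ± 0.28, or 2.45-fold (limma p = 0.00138, adjusted p = 0.978, exact permutation p = 0.1), and its 2 further probes gave 0.87 and 0.88. On the probe of 0.87, Twist cKO, at 7.42, 5.72 and 5.86, overlapped KPC, at 5.16, 5.26 and 5.96. It also overlapped Snail cKO there, at 6.66, 6.11 and 5.41. On the probe of 0.88 every Twist cKO tumour was above every Snail cKO and KPC tumour. Within array set 1 the difference was 1.69 for H2ac19 and 1.29 for H2ac18.

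H2ac18 and H2ac19 are shown beside each other because the stretches before their starts are near copies, as are the genes. The windows are H2ac18 at chr3:96245247-96245496 on the plus strand and H2ac19 at chr3:96240375-96240624 on the minus strand of GRCm38.p6 (RefSeq). Each is printed along its own gene's strand, and capitals mark the longest run that both share, 169 bases.
H2ac18: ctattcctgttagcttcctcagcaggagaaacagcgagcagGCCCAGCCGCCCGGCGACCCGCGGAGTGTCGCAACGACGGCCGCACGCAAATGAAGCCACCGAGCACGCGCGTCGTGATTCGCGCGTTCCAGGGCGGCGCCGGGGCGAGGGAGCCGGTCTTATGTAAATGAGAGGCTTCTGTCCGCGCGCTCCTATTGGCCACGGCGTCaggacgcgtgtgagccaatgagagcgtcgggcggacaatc
H2ac19: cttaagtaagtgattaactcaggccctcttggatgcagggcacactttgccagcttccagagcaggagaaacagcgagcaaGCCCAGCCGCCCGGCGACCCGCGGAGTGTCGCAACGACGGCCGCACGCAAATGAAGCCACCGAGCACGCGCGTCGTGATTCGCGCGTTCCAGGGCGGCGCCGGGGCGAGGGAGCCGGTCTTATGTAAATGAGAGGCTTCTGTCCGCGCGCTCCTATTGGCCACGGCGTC
Signals assigned to these 2 genes cannot be assumed to come from separate transcripts.

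For the remaining H2A genes, each read by its brightest probe, Twist cKO and KPC overlapped, and 0 reached an unadjusted p under 0.05 in that comparison. Their Twist cKO minus KPC differences ran from -0.09 for H2ac4 to 0.96 for H2ac8. A dimmer H2ac20 probe, given near the end, differed by 1.49 with no overlap. H2ac10, H2ac20 and H2ac24 had the brightest probes of all kept histone genes, although brightness differs between probes for reasons other than RNA amount. H2ac10 was at 13.32, 13.22 and 12.68 in the Twist cKO tumours, 13.17, 12.95 and 12.83 in the Snail cKO tumours, and 12.78, 12.43 and 12.56 in the KPC tumours. H2ac20 was at 13.12, 13.28 and 12.56 in the Twist cKO tumours, 13.30, 12.95 and 12.90 in the Snail cKO tumours, and 12.64, 12.29 and 12.70 in the KPC tumours. H2ac24 was at 12.98, 13.30 and 12.43 in the Twist cKO tumours, 13.21, 13.10 and 12.63 in the Snail cKO tumours, and 12.97, 12.10 and 12.57 in the KPC tumours. In all 3 the tumours of array set 2 were above those of set 1, Twist cKO 3 included. That order held without overlap for 6 of 14 H2A genes (H2ac7, H2ac10, H2ac11, H2ac13, H2ac20 and H2ac24) and for 0 of the other 32, against 1.83% of all genes tested. The H2A median of 0.54 was 0.19 with the set as a block and 0.12 within set 1, and H2ac7, H2ac22 and H2ac24 came to -0.01, -0.03 and -0.05 with the block. Array set and genotype cannot be told apart for KPC against the set 2 tumours. Without Twist cKO 3, which was in set 1, 6 rather than 2 H2A genes had an unadjusted p under 0.05.

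The H2B genes gave the highest class median in Twist cKO against KPC tumours, with 9 of 11 at an unadjusted p under 0.05 and 11 of 11 higher. One of the 9, H2bc8, was above background in 3 Twist cKO, 1 Snail cKO and 1 KPC tumours, so that it was kept only through the group where it was high and is no support for the count. H2bc15 was at 9.88, 8.39 and 10.15 in the Twist cKO tumours, 9.06, 7.86 and 8.47 in the Snail cKO tumours, and 8.35, 7.67 and 6.89 in the KPC tumours. Twist cKO 2 cleared the highest KPC tumour by a narrow margin, and Snail cKO overlapped both groups. The H2bc15 difference was 1.83 ± 0.57, or 3.57-fold (limma p = 0.0109, adjusted p = 0.978, exact permutation p = 0.1). H2bc4 was at 11.87, 10.90 and 12.09 in the Twist cKO tumours, 11.42, 10.61 and 11.10 in the Snail cKO tumours, and 10.73, 10.30 and 8.79 in the KPC tumours. Here too Twist cKO and KPC did not overlap. The H2bc4 difference was 1.68 ± 0.54, or 3.21-fold (limma p = 0.0132, adjusted p = 0.978, exact permutation p = 0.1), and 1.11 without KPC 3.

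The widest spread over the 9 tumours belonged to H2bc6, H2bc7 and H2bc9 and to the H4 gene H4c8, at 3.53 to 3.62 log2 units between the highest and the lowest tumour. H2bc6 was at 11.66, 10.13 and 12.16 in the Twist cKO tumours, 10.97, 9.89 and 10.63 in the Snail cKO tumours, and 10.64, 9.77 and 8.54 in the KPC tumours. H2bc7 was at 11.58, 10.22 and 12.14 in the Twist cKO tumours, 10.70, 9.99 and 10.50 in the Snail cKO tumours, and 10.49, 9.52 and 8.53 in the KPC tumours. H2bc9 was at 11.01, 9.48 and 11.38 in the Twist cKO tumours, 10.11, 9.13 and 9.62 in the Snail cKO tumours, and 9.66, 8.82 and 7.85 in the KPC tumours. In each, Twist cKO 1 and 3 were the 2 highest tumours and KPC 3 the lowest, and Twist cKO 2 lay below KPC 1. This order made the groups overlap despite differences of 1.67 ± 0.66, 1.80 ± 0.60 and 1.84 ± 0.61 for H2bc6, H2bc7 and H2bc9. The H2B genes outside the pattern were H2bc21, with 0.37 ± 0.32, and the dim H2bc3, with 0.04 ± 0.28. Of the 9 H2B genes at an unadjusted p under 0.05, 2 were left without KPC 3 and 2 without Twist cKO 3, with class medians of 1.11 and 1.25. The H2B median was 2.36 within array set 1, where Twist cKO 3 was the only Twist cKO tumour, and 2.49 without KPC 1 and Twist cKO 2.

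**Figure D3:**
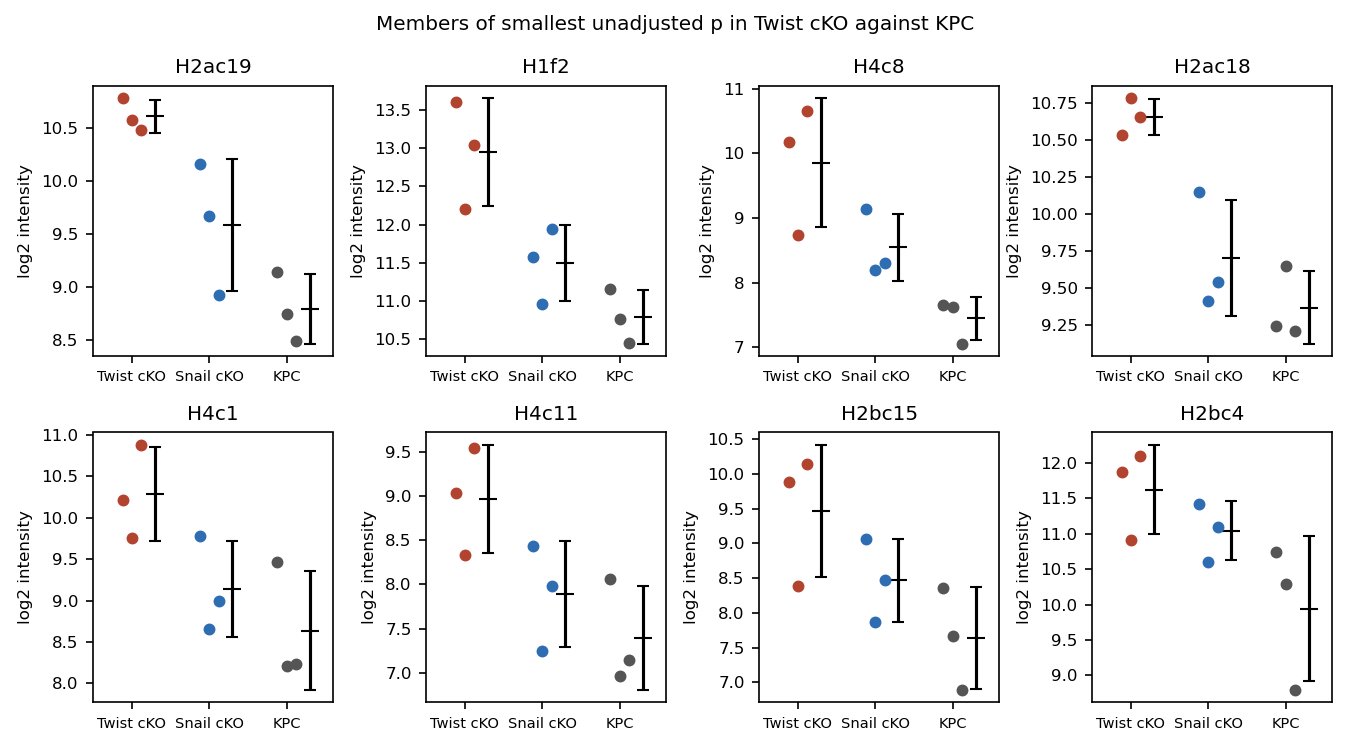
Log2 intensity in each tumour (points) with the group mean and SD (bar, n = 3) for the 8 kept histone genes of smallest unadjusted p in Twist cKO against KPC, on axes that do not start at 0. In all 8 the 3 Twist cKO tumours lie above the 3 KPC tumours, and in H2bc15 and H2bc4 the lowest Twist cKO tumour, number 2, comes close to KPC 1.

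Many H2A and H2B genes lie head to head and share the stretch between their starts. RefSeq starts gave 9 such pairs with at most 400 bases between them (163 to 280), and both genes were kept in 5. In Twist cKO against KPC tumours the H2B gene had the larger difference in 5 of 5 pairs, with medians of 1.59 for the H2B and 0.67 for the H2A genes. All 5 H2B genes and 0 of the H2A genes had an unadjusted p under 0.05, but H2bc8 was kept only through the Twist cKO tumours, as given above. The differences were 1.80 for H2bc7 and 0.43 for H2ac7, 1.83 for H2bc15 and 0.49 for H2ac15, and 1.59 for H2bc11 and 0.67 for H2ac11. In the other pairs they were 1.30 for H2bc12 and 0.76 for H2ac12, and 0.98 for H2bc8 and 0.96 for H2ac8. A shared stretch of each of 2 kinds is printed here, 1 with the octamer that is known for H2B promoters and 1 without it. The first lies at chr13:22035644-22035820, between H2ac12 and H2bc12, and the second at chr13:23574208-23574380, between H2bc7 and H2ac7, both on the plus strand of GRCm38.p6 (RefSeq). Capitals mark the octamer ATTTGCAT, to which the factor of the Pou2f1 gene binds, and CCAAT boxes (CCAAT or, on the other strand, ATTGG), known sites of NF-Y.
H2bc12-H2ac12: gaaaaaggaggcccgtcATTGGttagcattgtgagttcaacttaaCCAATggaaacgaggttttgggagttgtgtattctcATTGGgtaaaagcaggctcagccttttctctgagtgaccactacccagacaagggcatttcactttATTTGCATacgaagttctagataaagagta
H2bc7-H2ac7: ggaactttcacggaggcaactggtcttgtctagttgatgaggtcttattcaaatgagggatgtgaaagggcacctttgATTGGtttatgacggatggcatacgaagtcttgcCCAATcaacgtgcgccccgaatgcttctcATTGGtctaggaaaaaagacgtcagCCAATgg
RefSeq windows were found for 41 of 46 kept genes, 42 windows in all. In the 250 bases before the start, read on both strands, the octamer occurred in 5 of 10 H2B, 4 of 14 H2A and 0 of 10 H4 windows, against 1.6% of all windows. The CCAAT box occurred in 10 of 10 H2B, 14 of 14 H2A and 3 of 10 H4 windows, against 33.85% of all. Windows of a head-to-head pair overlap, so the H2A and H2B counts are not separate. The H2B genes with the octamer in their only window, H2bc3, H2bc8, H2bc12 and H2bc14, had Twist cKO minus KPC differences of 0.04, 0.98, 1.30 and 1.77. Those without it, H2bc11, H2bc7, H2bc15 and H2bc9, had 1.59, 1.80, 1.83 and 1.84. H2bc6, with 1.67, had a window of each kind.

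Differences between Twist cKO and KPC were smaller for the H3 genes, whose mean was higher in Twist cKO for 8 of 8, and 0 of 8 reached an unadjusted p under 0.05. H3c8 was kept only through knockout tumours and is no support for the 8. Read by the brightest probe of each gene, the H3 differences ran from 0.14 for H3c10 to 0.68 for H3c1. Twist cKO 3 was the highest tumour for 6 of 8. H3c4, for one, was at 7.84, 7.53 and 9.08 in the Twist cKO tumours, 7.84, 6.93 and 7.38 in the Snail cKO tumours, and 8.12, 6.79 and 7.69 in the KPC tumours. KPC 1 was second to Twist cKO 3 there, and the groups overlapped. The class median of 0.54 was 0.26 without Twist cKO 3, 0.28 without KPC 2 and 0.83 without Twist cKO 2. Dimmer kept probes gave 1.05 for H3c7, 1.03 and 0.03 for H3c10, and 0.44 for H3c14. On that H3c7 probe, above background in 1 KPC tumour, Twist cKO and KPC did not overlap.

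Among the H4 genes, 11 of 11 had a higher mean in Twist cKO than in KPC tumours, 5 of them at an unadjusted p under 0.05. H4c3 and H4c14 were kept only through knockout tumours and are no support for the 11. H4c8 was at 10.18, 8.74 and 10.65 in the Twist cKO tumours, 9.14, 8.19 and 8.31 in the Snail cKO tumours, and 7.66, 7.62 and 7.06 in the KPC tumours. All 6 knockout tumours were above the 3 KPC tumours. Its difference was 2.41 ± 0.51, or 5.32-fold, the largest of the kept histone genes, and it ranked 5 among all genes (limma p = 0.00116, adjusted p = 0.978, exact permutation p = 0.1). H4c1 was at 10.21, 9.75 and 10.88 in the Twist cKO tumours, 9.78, 8.65 and 9.00 in the Snail cKO tumours, and 9.47, 8.21 and 8.24 in the KPC tumours. The Twist cKO minus KPC difference of H4c1 was 1.64 ± 0.47, or 3.12-fold (limma p = 0.00758, adjusted p = 0.978, exact permutation p = 0.1). H4c11 was at 9.04, 8.33 and 9.54 in the Twist cKO tumours, 8.44, 7.25 and 7.98 in the Snail cKO tumours, and 8.06, 6.96 and 7.15 in the KPC tumours. That of H4c11 was 1.58 ± 0.46, or 2.99-fold (limma p = 0.00779, adjusted p = 0.978, exact permutation p = 0.1). In H4c1 and H4c11 the lowest Twist cKO tumour was number 2 and the highest KPC tumour number 1. The other H4 genes at an unadjusted p under 0.05 were H4c12, at 1.52 ± 0.49, and H4c9, at 1.46 ± 0.53. The class median of 1.12 was 0.62 without KPC 2, and the 5 genes became 3 without KPC 2, 3 without Twist cKO 3 and 9 without KPC 1.

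Snail cKO tumours were compared with the same KPC tumours, so this comparison shares its control samples with the one above. The mean was higher in Snail cKO for 33 of 46 histone genes, against 46% of all genes, with a median difference of 0.42 against -0.04 over all genes. None of the 46 reached an unadjusted p under 0.05 in limma, where 1.01% of all genes were higher and 1.69% lower at that p (2.7% either way), and 0 of 11537 genes had an adjusted p under 0.05. The 2 groups did not overlap for H2ac10, H2ac13, H2ac20 and H4c8, higher in Snail cKO, and for H2ac4 and H3c10, lower, against 2.84% and 5.84% of all genes. The smallest unadjusted p values belonged to H2ac19, H4c8, H2bc4 and H2ac20, with differences of 0.79 ± 0.35, 1.10 ± 0.51, 1.10 ± 0.54 and 0.50 ± 0.28. In Twist cKO minus KPC the same 4 genes had 1.82, 2.41, 1.68 and 0.44. By class the Snail cKO medians were 0.83 for H2B, 0.46 for H2A, 0.39 for H1, 0.23 for H4 and -0.15 for H3. The H2B median was 0.37 without KPC 3 and 0.53 without Snail cKO 1. The H4 median was 0.02 without KPC 2, 0.02 without Snail cKO 1, 0.58 without KPC 1, 0.42 without Snail cKO 2 and 0.36 without Snail cKO 3, and that of H1 was 0.59 without Snail cKO 2. The H3 median was -0.49 without KPC 2, -0.34 without Snail cKO 1, -0.08 without KPC 3 and -0.07 without Snail cKO 3, and it was above 0 with array set as a block (0.04), without KPC 1 (0.07), without Snail cKO 2 (0.05) and with array weights (0.19). The H2A median was 0.10 with the block. The median over the 46 was 0.16 without Snail cKO 1 and 0.22 without KPC 2. For H2ac19 the value without Snail cKO 1 was 0.50, and for H2bc4 that without KPC 3 was 0.53.

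Set directly against each other, Snail cKO tumours had lower histone values than Twist cKO tumours. The mean was lower for 40 of 46 genes, where 52.2% of all genes had a higher mean, and the median difference was -0.58 against 0.02. At an unadjusted p under 0.05, 8 were lower and 0 higher, against 1.8% and 1.98% of all genes (3.78% either way), and 7 did not overlap, all lower, against 3.97% of all genes lower and 4.25% higher. One of the 7, H4c3, was above background in 3 Twist cKO, 0 Snail cKO and 1 KPC tumours. It was kept only through the Twist cKO tumours and is no support for the count. No gene passed the adjusted threshold in limma. The 4 of smallest p were H1f2 at -1.45 ± 0.42, H2ac18 at -0.96 ± 0.28, H2ac19 at -1.03 ± 0.35 and H4c8 at -1.31 ± 0.51. The exact permutation p was 0.1 for the first 3 and 0.2 for H4c8, in which Snail cKO 1 was above Twist cKO 2. The others at an unadjusted p under 0.05 were H3c1, H4c1, H4c9 and H4c11. By class the medians were -1.09 for H4, -0.82 for H2B, -0.63 for H3, -0.59 for H1 and -0.10 for H2A, the last turning to 0.12 without Twist cKO 2, 0.09 within array set 1, 0.08 without Snail cKO 3 and 0.01 with array weights. The H2A median was also -0.29 without Twist cKO 3, -0.20 without Snail cKO 1 and -0.0039 without Twist cKO 1. The H2B median was -0.40 without Twist cKO 3, -0.51 without Snail cKO 2 and -1.32 without Twist cKO 2. That of H3 was -0.37 without Twist cKO 3, and that of H1 was -0.39 without Snail cKO 2. Within array set 1, with 1 tumour of each knockout group and the spread taken from KPC, the median over the 46 was -1.07, within set 2, a setting chosen after seeing the data, it was -0.38, and without Snail cKO 2 it was -0.38.

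With the mean of both knockout groups set against KPC, 43 of 46 histone genes had a higher mean, against 44.7% of all genes, with a median of 0.52. At an unadjusted p under 0.05 there were 13 higher and 0 lower, against 0.936% and 1.94% of all genes (2.88% either way), and 0 genes passed the adjusted threshold. H4c8 alone did not overlap, against 0.607% of all genes higher and 1.33% lower, with a difference of 1.76 ± 0.44 and an exact permutation p of 0.0238, the smallest that 6 against 3 tumours allow. H2ac19, H1f2 and H2ac18 differed by 1.31 ± 0.30, 1.43 ± 0.36 and 0.81 ± 0.24, with exact permutation p values of 0.0476, 0.0476 and 0.0714. The 13 became 4 without KPC 3, 5 without KPC 2, 5 without Snail cKO 1 and 8 without Twist cKO 1.

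Single tumours of 1 group also differed from each other. The median deviation of the 46 genes from their 9-tumour means was 0.46, 0.15 and 0.84 in the Twist cKO tumours, 0.39, -0.47 and -0.16 in the Snail cKO tumours, and 0.05, -0.71 and -0.38 in the KPC tumours. Twist cKO 3 was the highest tumour for 25 of 46 genes, Twist cKO 2 for 10 and Twist cKO 1 for 7. KPC 2 was the lowest for 21, KPC 3 for 13 and Snail cKO 2 for 6. The classes ordered the tumours in different ways. H2B medians were 1.12, -0.20 and 1.54 in the Twist cKO tumours, 0.48, -0.55 and -0.05 in the Snail cKO tumours, and -0.09, -0.62 and -1.73 in the KPC tumours. H2A medians were 0.34, 0.58 and -0.24 in the Twist cKO tumours, 0.46, 0.12 and -0.20 in the Snail cKO tumours, and 0.10, -0.70 and -0.34 in the KPC tumours. Thus Twist cKO 3 headed the H2B genes and was the lowest Twist cKO tumour for the H2A median, and Twist cKO 2 did the opposite. H4 medians were 0.84, 0.27 and 1.37 in the Twist cKO tumours, 0.42, -0.66 and -0.34 in the Snail cKO tumours, and 0.12, -1.12 and -0.46 in the KPC tumours. The highest tumour was Twist cKO 3 for 9 of 11 H2B and 8 of 11 H4 genes, and Twist cKO 2 for 9 of 14 H2A genes. The lowest was KPC 3 for 8 of 11 H2B genes, and KPC 2 for 10 of 14 H2A and 7 of 11 H4 genes.

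**Figure D4:**
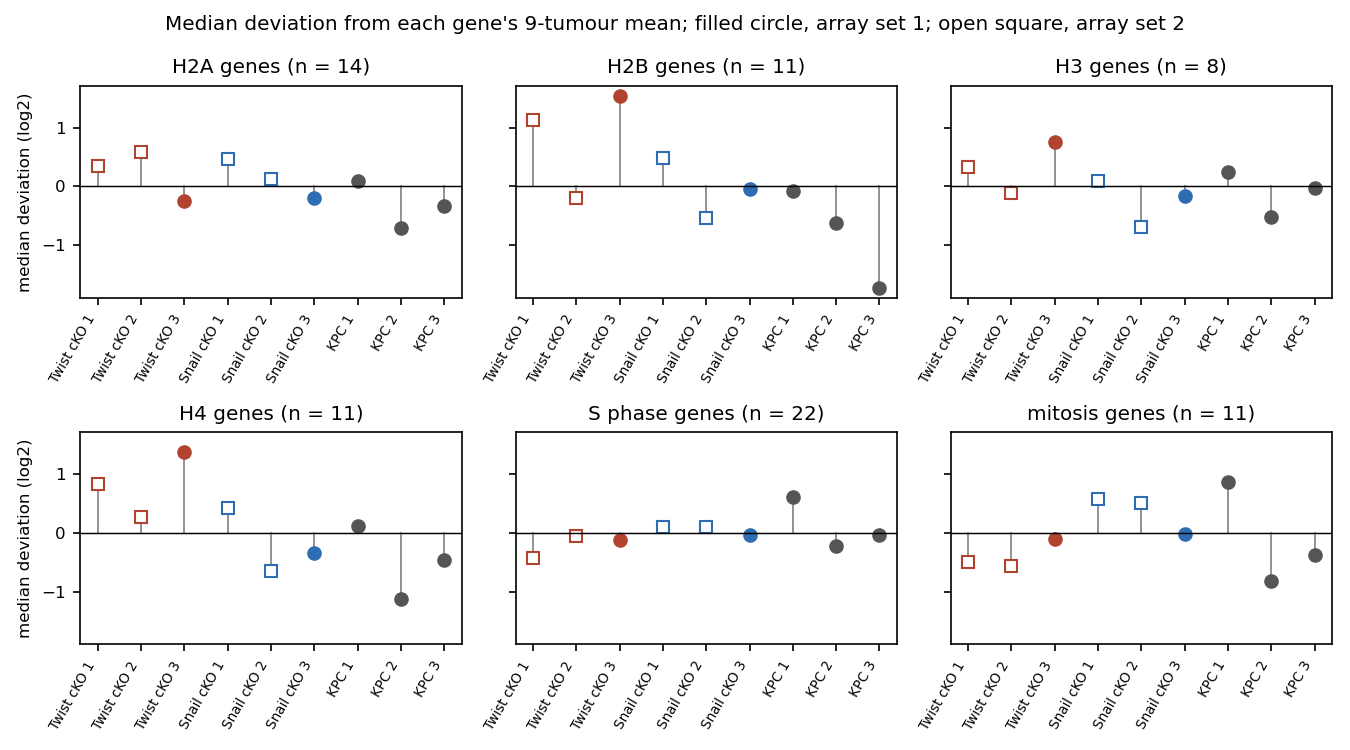
Median over each gene list of the log2 deviation from the gene's 9-tumour mean, in each tumour, with arrays of set 1 as filled circles and of set 2 as open squares. H2B and H4 medians are highest in Twist cKO 3, the H2A median is highest in Twist cKO 2, and the S phase and mitosis medians are highest in KPC 1.

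Genes that accompany histone synthesis were read from lists drawn up beside the histone genes, and 0 of their members passed the adjusted threshold in any comparison. Of the S phase and DNA replication genes, 22 of 26 were kept, and 19 of these had a lower mean in Twist cKO than in KPC tumours, with a median of -0.23. Mcm6 and Mcm2, subunits of the replicative helicase, differed by -0.49 ± 0.26 and -0.59 ± 0.32. Cdc6, which loads that helicase, differed by -0.49 ± 0.34, and Pcna, the sliding clamp, by -0.40 ± 0.30. Of the mitosis genes 10 of 11 kept had a lower mean in Twist cKO, with a median of -0.23, and Cdk1, the mitotic kinase, differed by -0.56 ± 0.38. Over all genes 43.7% had a higher mean, with a median of -0.07. The mitosis median per tumour was -0.50, -0.56 and -0.10 in the Twist cKO tumours and 0.86, -0.81 and -0.38 in the KPC tumours. It was 0.58, 0.50 and -0.02 in the Snail cKO tumours, so that KPC 1 was the highest and KPC 2 the lowest tumour. None of either list had an unadjusted p under 0.05 in limma. The S phase median per tumour was -0.43, -0.06 and -0.12 in the Twist cKO tumours, 0.11, 0.11 and -0.04 in the Snail cKO tumours, and 0.61, -0.22 and -0.04 in the KPC tumours. KPC 1 thus had the highest S phase median beside a histone median of 0.05, and Twist cKO 1 the lowest beside one of 0.46. Within the KPC group both medians were highest in KPC 1 and lowest in KPC 2, and within each knockout group the orders differed.

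Of the factors for histone mRNA synthesis and processing, 19 of 24 were kept and 13 of them had a lower mean in Twist cKO than in KPC tumours, with a median of -0.07. The median over all genes was also -0.07, and 43.7% of all genes had a higher mean, so this list stood close to all genes. Zfp473, a zinc finger protein of the histone pre-mRNA processing complex, differed by -0.54 ± 0.29, and Cstf2, a cleavage factor subunit, by -0.53 ± 0.28. Tent2, a cytoplasmic poly(A) polymerase, differed by 0.76 ± 0.46, and E2f1, an S phase transcription factor, by -0.70 ± 0.55. The probes of Slbp, the stem-loop binding protein, of Casp8ap2 and of Lsm11, a subunit of the particle that cleaves histone pre-mRNA, were above background on 0 arrays. A probe of Npat, the co-activator of histone genes, was above background on at most 1. Of the histone chaperones, 17 of 19 were kept and 11 of them had a lower mean in Twist cKO, with a median of -0.10, again close to all genes. Hira, which deposits a replacement H3, differed by 0.65 ± 0.27, the only chaperone with an unadjusted p under 0.05 (limma, adjusted p = 0.978). That is 1 of 17, where 3.55% of all genes were under that p either way. Rbbp4, a histone-binding subunit, differed by 0.63 ± 0.28, and Chaf1a, the large subunit of the replication-coupled assembly factor CAF-1, by -0.90 ± 0.41. Nap1l1, a chaperone of H2A and H2B, differed by -0.53 ± 0.37. Replication-independent variants, whose genes are transcribed outside S phase too, had a higher mean in Twist cKO for 6 of 9 kept, with a median of 0.12. H2ax differed by 0.61 ± 0.33, H3f3a by 0.40 ± 0.24, Macroh2a1 by 0.32 ± 0.26 and H3f3b by -0.30 ± 0.35.

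Markers of other cells differed widely between single tumours. The median of the 4 kept of 8 B and plasma cell markers was -0.62, 4.82 and -1.33 in the Twist cKO tumours, -1.38, 1.99 and -0.87 in the Snail cKO tumours, and -1.76, -0.23 and -1.17 in the KPC tumours. The 5 kept of 8 duct cell markers were at 0.42, -5.51 and 0.78 in the Twist cKO tumours, 0.09, 1.85 and 1.61 in the Snail cKO tumours, and -2.16, 1.14 and 1.63 in the KPC tumours. Twist cKO 2 was thus high in lymphoid and low in duct markers. It was also high in T cell markers (5.67, 2 of 8 kept) and adipocyte markers (4.65, 4 of 6 kept), and KPC 1 was high in macrophage markers (1.87, 11 of 12 kept). Acinar cell markers (13 of 18 kept) were at 1.43, -1.22 and 0.88 in the Twist cKO tumours, -0.24, -1.50 and 3.17 in the Snail cKO tumours, and -1.39, 0.62 and -1.52 in the KPC tumours. Twist cKO 1 and 3 were above Twist cKO 2 here, as for the H2B genes and the duct markers. Snail cKO 3, the highest in acinar markers, had an H2B median of -0.05. The part of acinar cells in the histone values was not tested. Without KPC 1 and Twist cKO 2 the Twist cKO minus KPC median of the 46 histone genes was 1.17, and the class medians were 2.49 for H2B, 1.88 for H4, 0.93 for H3 and 0.61 for H2A. For the 46 genes, H2B, H3 and H4, Twist cKO 2 had the lowest median of its group and KPC 1 the highest of its own. Leaving both out therefore raises these differences whatever the cell content.

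Several histone genes were close to background. The dimmest kept were H3c8, H4c3 and H4c14. H3c8 was at 5.35, 4.66 and 5.64 in the Twist cKO tumours, 5.06, 4.87 and 5.08 in the Snail cKO tumours, and 4.53, 4.65 and 4.88 in the KPC tumours. It was not well above background in any KPC tumour. The ratio of group means is therefore given only with the KPC signal raised, as described below. That ratio was 1.18-fold higher in Twist cKO (adjusted p = 0.978, limma) and 1.02-fold higher in Snail cKO tumours (adjusted p = 0.9999, limma). Only 2 of 3 tumours of each knockout group were above background, so these ratios are not lower bounds. Both knockout groups overlapped KPC, and H3c8 was kept only through knockout tumours, so that neither ratio establishes a difference. For these ratios the dim group's signal was raised, array by array, to the lowest signal found above background wherever the probe itself was dimmer. H4c3 was at 5.06, 5.33 and 5.30 in the Twist cKO tumours, 4.90, 4.50 and 4.94 in the Snail cKO tumours, and 5.19, 4.54 and 4.64 in the KPC tumours. With 0 of 3 Snail cKO tumours above background, their signal was raised in the same way. All 3 Twist cKO tumours were above background, and the group mean was at least 1.10-fold lower in Snail cKO than in Twist cKO tumours (adjusted p = 0.986, limma). H4c3 was kept only through the Twist cKO tumours, so that this bound establishes no difference. H4c14 was at 4.67, 5.07 and 5.05 in the Twist cKO tumours, 5.56, 4.49 and 4.61 in the Snail cKO tumours, and 4.75, 4.52 and 4.74 in the KPC tumours, and no fold is given for it.

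H4c14 and H2bc3 were just inside the rule, above background on 3 arrays, and H1f3, H2ac6 and H3c3 were just outside it, on 2. H2bc3 ranged from 4.75 to 5.59 over the tumours. H2ac6, at 6.37, 4.58 and 6.23 in the Twist cKO tumours, 4.61, 4.37 and 4.70 in the Snail cKO tumours, and 4.45, 4.55 and 4.40 in the KPC tumours, was above background only in Twist cKO 1 and 3, the tumours that were highest for the H2B genes. H1f3 was above background in 2 Snail cKO tumours, and H3c3 in 1 Twist cKO and 1 KPC tumour. The remaining genes left out, H1f1, H1f4, H2ac1, H2bc1, H2bc18 and H4c2, were above background on 0 arrays.

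For 16 of the 46 genes more than 1 probe was kept, and in each of them every probe gave a higher mean in Twist cKO than in KPC tumours. One dimmer H4c6 probe, with a difference of 0.88, was above background in 3 Twist cKO, 1 Snail cKO and 1 KPC tumours. That probe was kept only through the group where it was high and is no support for this statement. The sizes differed most for H2ac20, with 0.44 for the brightest probe and 1.49 for the other, for H4c12, with 1.52 and 0.39, and for H3c10, with 0.14, 1.03 and 0.03. The H2ac20 probe of 1.49 was at 7.58, 7.67 and 7.68 in the Twist cKO tumours, 7.17, 6.97 and 6.43 in the Snail cKO tumours, and 6.34, 6.11 and 6.01 in the KPC tumours, with no overlap between any of the groups. Which copy each probe reports was not tested, as probe sequences were not used here.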

How the data were processed

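Total RNA of 9 pancreas tumours was, per the labels' protocols, extracted with Trizol, amplified to biotin cRNA (Ambion MessageAmp) and read on 1-colour Illumina arrays. GenomeStudio 5.0 appears in the submitters' processing notes, its role unstated. For each probe and array the authors deposited, per the file headers, a mean bead intensity with its detection p-value. The intensity was linear and not normalized, judging from its values. A second, processed intensity file that the authors deposited was a straight-line function of it in each column (slopes 0.795 to 1.16, intercepts -101 to -68.3, medians 21.7, 22.4 and 11.2 for Twist cKO 1 to 3, 21.7, 23.3 and 9.3 for Snail cKO 1 to 3, and 14.6, 13.7 and 17.3 for KPC 1 to 3), so its scale was linear and its direction the same, with no centring by gene.

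Background correction, quantile normalization and the log2 step were done by neqc (offset 16) of limma 3.58.1 in R 4.3.3, with data.table (version 1.17.8) for reading. Figures were drawn with matplotlib 3.10.9. Gene symbols came from the annotation of the array platform, where 34885 probes had 1 symbol, 18 several and 10378 none. A probe was kept at a detection p under 0.05 on 3 of 9 arrays (20940 probes), and the brightest kept probe stood for its gene. Group means were fitted over all 9 arrays with lmFit and eBayes (6 residual degrees of freedom plus 2.57 from the prior). All p-values are two-sided. They were adjusted over 11537 genes (Benjamini-Hochberg), with 0.05 as the threshold. Errors of differences are standard errors, and those of group means are SDs. Each tumour is labelled as its own mouse, so p-values measure the spread between mice. Precision is limited by the number of arrays. The median difference over all genes lay between -0.07 and 0.02 and was not subtracted.

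Histone genes given with every tumour's value were the 8 of smallest p in Twist cKO against KPC, 4 in each other comparison, the 3 brightest, the 3 dimmest and the 4 of widest range. From the 5 pathway lists the members of smallest p were named, up to 4 each. H3c4 and the H2ac20 probe of larger difference were chosen after their values were seen. The members and all 17 lists were chosen with earlier results of these data known. A further 24 settings were compared, among them other background correction, normalization, probe filters, array set and leaving out each tumour. The list medians of markers not given in the text ranged over the 9 tumours from -1.11 to 1.08 for neutrophils, -1.65 to 0.76 for fibroblasts, -0.96 to 0.90 for endothelium, -1.42 to 2.26 for smooth muscle, -1.52 to 3.42 for islets and -2.18 to 2.46 for erythroid cells.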

Additional observations from a re-analysis of the deposited data

How the results depend on the processing

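The 3 tumours per group and the absence of KPC tumours from array set 2 limit every comparison, and 0 histone genes passed the adjusted threshold of limma under any setting tried. In Twist cKO minus KPC the median of the 46 histone genes stayed above 0 throughout, at 0.48 to 1.03 when 1 tumour was left out. It was 1.21 within array set 1, 1.17 without KPC 1 and Twist cKO 2, and 1.14 with array quality weights. Set 1 holds only Twist cKO 3 of its group, the highest tumour for 25 of 46 genes. By the median of the 46, Twist cKO 2 was the lowest Twist cKO tumour and KPC 1 the highest KPC tumour. The number at an unadjusted p under 0.05 was 29 with array weights, and 9 to 22 with 1 tumour left out. Over all genes, 0 to 3 passed the adjusted threshold with 1 tumour left out, the 3 without Twist cKO 1. In Snail cKO minus KPC that number, 0 in the fit as reported, was 1 with no background correction, an offset of 50, no detection filter, detection on all arrays or an intensity trend, 2 with cyclic loess or the mean of kept probes, 11 without KPC 1 and Twist cKO 2, 13 with array weights, and 0 to 3 with 1 tumour left out. For both knockout groups against KPC it was 21 without KPC 1 and Twist cKO 2, 29 with array weights, and 4 to 19 with 1 tumour left out. Shares of all genes at that p are not given for these altered settings. The counts under them, here and above, therefore have no background to compare with. In Snail cKO minus Twist cKO the median was -1.07 within array set 1, and 0 to 1 of all genes passed with 1 tumour left out, the 1 without Twist cKO 1. Array set 2 only, a setting chosen after seeing the data, could be fitted for this comparison alone. No paired analysis was possible because each tumour came from a mouse of its own number.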
